A study of Mus musculus with 2 samples.

Results

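The genes described here encode subunits of the mitochondrial respiratory chain and of ATP synthase, measured in liver tumours of mice with and without HLF (hepatic leukemia factor, a transcription factor of the PAR bZIP family). They were chosen by symbol: every probe set annotated to exactly 1 gene whose name begins with Ndufa, Ndufb, Ndufc, Ndufs or Ndufv and a number, Uqcr, Cox4 to Cox8 or Atp5, or is Sdha, Sdhb, Sdhc or Sdhd. This gave 105 probe sets for 81 of the 19938 genes named singly on the array, and each gene was represented by its brightest probe set. Carcinoma tissue of HLF-deficient mice treated with DEN (diethylnitrosamine, a chemical liver carcinogen) was set against carcinoma tissue of wild-type (WT) mice treated in the same manner. Strain, sex, age, dose of DEN, the kind of Hlf allele and the number of mice or nodules behind each sample are not given in the sources used here. There was 1 array for each genotype, so no test between genotypes was possible, no SD could be given, and every difference below is between 2 tumour samples.

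Respiration passes electrons from NADH through complex I, and from succinate through complex II, to ubiquinone, then through complex III and cytochrome c to complex IV, which reduces oxygen. Complexes I, III and IV pump protons across the inner mitochondrial membrane, and ATP synthase, also called complex V, uses their return flow to make ATP. Hepatocytes are rich in mitochondria, and most of the subunits are encoded in the nucleus, where transcription factors such as NRF1, the ETS-family factor GABP, YY1 and the nuclear receptor ERR alpha are known to bind promoters of this gene class. Catalysis in complexes I, III and V rests on a small conserved core, and the remaining accessory or small subunits surround it.

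Promoter sequence was examined because the genes are held to share regulators. RefSeq promoter sequences of assembly GRCm38.p6, reaching from 250 bases before to 50 bases after the start of a gene, were found for 66 of the 81 genes. These genes held 71 promoters, and a gene was counted for a motif when any of its promoters matched. The NRF1 motif, GCGC and GCGC with any 2 bases between them, was searched on both strands as all motifs here. It occurred in 17 of these 66 genes (25.8%). That compares with 13.0% of the 11540 genes compared that had a promoter, and 1891 of 27025 genes in all. The ETS motif CCGGAAG occurred in 17 of 66 (25.8%), against 16.9% of genes compared and 9.93% of all. The YY1 motif AAGATGGCG occurred in 7 of 66 (10.6%), against 2.92% of genes compared and 1.64% of all. The CRE motif TGACGTCA was present in 4 (6.06%, against 3.15% of genes compared and 2.03% of all) and the ERR motif TCAAGGTCA in 2 (3.03%, against 0.364% and 0.466%). The motif of PAR bZIP factors, TTACGTAA or TTATGTAA, occurred in 1 of 66 (1.52%), the promoter of Cox7b, against 0.927% of genes compared and 1.23% of all. A match describes the letters in this window and shows no binding. None of these motifs contains another, although matches may overlap in a promoter.

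The upstream 250 bases of 5 promoters are shown, 5′ to 3′ on the strand of the gene and with motif matches in capitals, because they set the same motif before genes that differed in opposite directions and include the single PAR bZIP match. Atp5g2 (chr15:102671048-102671297, minus strand), a c-ring gene that was higher in the HLF-deficient tumour, and Atp5k (chr5:108434400-108434649, minus strand) and Ndufs5 (chr4:123718187-123718436, minus strand), which were lower, each carry an NRF1 match. Uqcr11 (chr10:80406822-80407071, minus strand), the gene with the most negative difference, carries an ETS match. Cox7b (chrX:106015450-106015699, plus strand) carries the PAR bZIP match, whose first base lies at position -192 from the start.
Atp5g2: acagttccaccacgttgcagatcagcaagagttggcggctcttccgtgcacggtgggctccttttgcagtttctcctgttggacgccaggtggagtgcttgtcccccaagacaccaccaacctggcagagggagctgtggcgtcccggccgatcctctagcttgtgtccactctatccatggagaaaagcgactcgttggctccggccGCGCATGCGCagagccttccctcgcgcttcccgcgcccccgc
Atp5k: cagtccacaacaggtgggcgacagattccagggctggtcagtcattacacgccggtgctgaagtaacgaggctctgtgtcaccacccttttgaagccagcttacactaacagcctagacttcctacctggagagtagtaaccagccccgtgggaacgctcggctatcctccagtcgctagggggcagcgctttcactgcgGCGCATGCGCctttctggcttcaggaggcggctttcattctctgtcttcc
Ndufs5: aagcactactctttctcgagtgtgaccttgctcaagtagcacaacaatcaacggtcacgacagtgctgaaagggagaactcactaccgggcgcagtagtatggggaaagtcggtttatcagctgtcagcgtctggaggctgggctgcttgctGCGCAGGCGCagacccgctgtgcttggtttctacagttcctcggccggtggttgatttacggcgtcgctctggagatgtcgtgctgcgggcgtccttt
Uqcr11: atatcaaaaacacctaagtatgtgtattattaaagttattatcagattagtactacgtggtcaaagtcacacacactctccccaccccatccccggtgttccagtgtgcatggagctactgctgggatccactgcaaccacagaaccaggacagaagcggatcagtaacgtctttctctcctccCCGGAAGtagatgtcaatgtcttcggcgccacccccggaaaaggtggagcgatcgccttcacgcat
Cox7b: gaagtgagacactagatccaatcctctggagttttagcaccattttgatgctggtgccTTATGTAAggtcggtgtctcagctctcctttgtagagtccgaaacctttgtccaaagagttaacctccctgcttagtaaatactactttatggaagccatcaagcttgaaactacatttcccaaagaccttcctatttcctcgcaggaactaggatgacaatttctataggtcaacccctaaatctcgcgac

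The 17 genes with an NRF1 match had a median log2 difference (HLF-deficient minus WT) of 0.03, and the 47 genes above the floor with a promoter but no match had one of -0.03. For the ETS motif the medians were -0.03 in 17 genes with a match and -0.02 in 47 without. For the YY1 motif they were -0.06 in 7 genes and -0.02 in 57. For the CRE motif they were 0.11 in 4 genes and -0.03 in 60.

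Expression is given as RMA values on a log2 scale. A floor of 2.96, the 95th percentile of 1245 probe sets of chemoreceptor genes taken as not expressed in liver, marked the level below which a gene was not taken as measured. Of the 81 genes, 79 reached it on both arrays, and Cox7b2 and Cox8b were below it on both. Hlf itself was at 3.79 in the HLF-deficient tumour and 5.13 in the WT tumour, a difference of -1.34, lower as labelled, and it is unknown whether its probe set lies within the altered stretch of Hlf. Hepatocyte markers were strongly expressed in both samples, with levels of 9.36 to 12.4 in the HLF-deficient and 9.25 to 12.6 in the WT tumour over the 7 measured of 8 listed, and a median difference of 0.07. The 5 endothelial, 5 macrophage and 5 stellate and fibroblast markers had medians of 0.81, 0.57 and 0.32. Stab2 (-0.06) among the endothelial and Lrat (-0.13) among the stellate markers went the other way. The 2 neutrophil markers that reached the floor had a median of -0.38. The part of these cell types in the differences below was not tested. In tumour tissue, fewer cells of a type and less RNA per cell cannot be told apart.

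No respiratory chain or ATP synthase gene differed by 2-fold. By this rule, 0 of 79 genes were higher by 2-fold and 0 were lower, against 1.49% and 0.362% of the 14649 genes compared. At 1.5-fold, 0 were higher and 1 was lower (Uqcr11), against a background of 6.35% higher and 3.13% lower. At a log2 difference of 0.32 or more, 1 was higher (Ndufs7) and 7 were lower (Uqcr11, Atp5k, Ndufs5, Uqcr10, Ndufa7, Ndufb3 and Cox7b), against 22.0% and 13.7% of all genes. The whole set lay in a narrow band: 71 of 79 (89.9%) differed by less than 0.32, compared with 64.4% of all genes, and the SD of the differences over genes was 0.19, compared with 0.38 over all genes. The set was also brighter than most genes, with a median level of 7.99 against 5.01 over all genes compared. A narrow band was not particular to the set. By the rule of 0.32, 3 genes of the mitochondrial ribosome were higher and 4 were lower, of 76. Among 55 cytosolic ribosomal protein genes, 2 were higher and 3 lower.

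**Figure D1:**
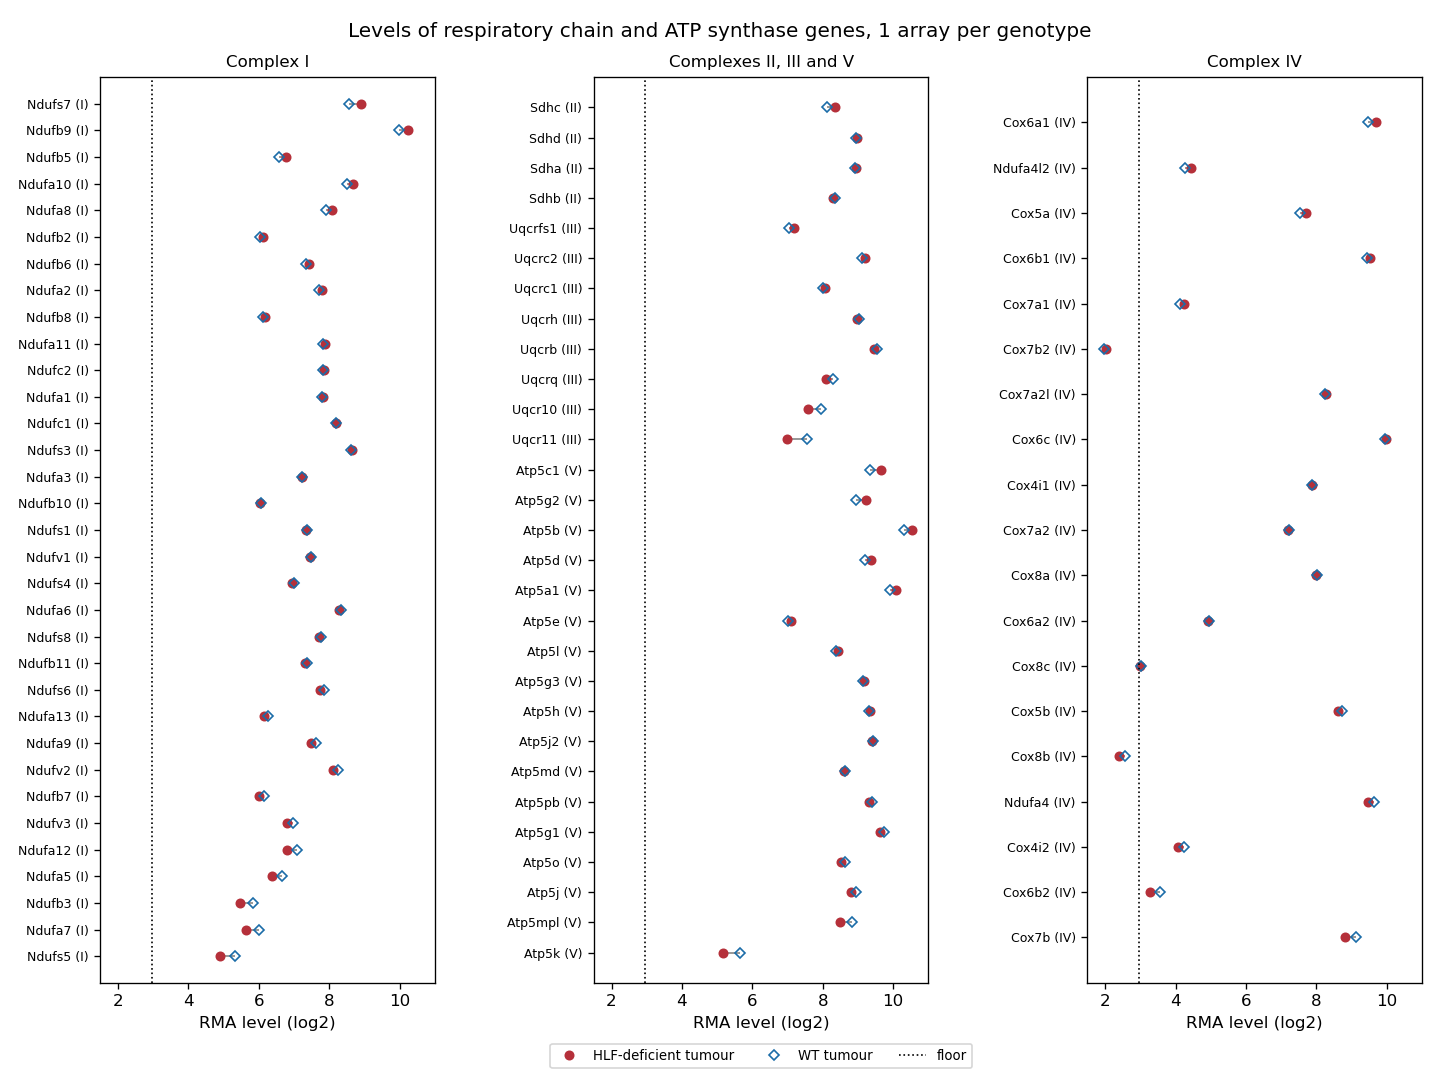
RMA levels (log2) of the 81 genes in the HLF-deficient tumour (filled circles) and the WT tumour (open diamonds), by complex and ordered by their difference; the dotted line is the floor of 2.96. The paired symbols nearly coincide for most genes, and the widest gaps are those of Uqcr11, Atp5k and Ndufs5, all lower in the HLF-deficient tumour.

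The median difference of the 79 genes was -0.02, beside 0.07 over all genes compared. Differences were above 0 for 36 genes and below 0 for 43, while 58.0% of all genes were above 0 and 41.7% below. The sign of so small a median was set by the scaling. It was 0.10 once the median of each array had been subtracted (centring), with 61 genes above 0 and 18 below. It was -0.13 after quantile normalization (17 above, 62 below) and -0.15 after removal of the trend of the difference with level by loess (13 above, 66 below). The corresponding medians of all genes were 0.20, 0.02 and 0.01. On centring 10395 of 14598 genes were above 0 and 4202 below. After quantile normalization 7812 of 14592 were above and 6762 below, and after loess 7501 of 14649 were above and 7148 below. The median of the set lay below that of all genes as deposited and after quantile normalization and loess. Centring adds 0.12 to every difference, so the centred comparison in effect repeats the one as deposited.

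**Figure D2:**
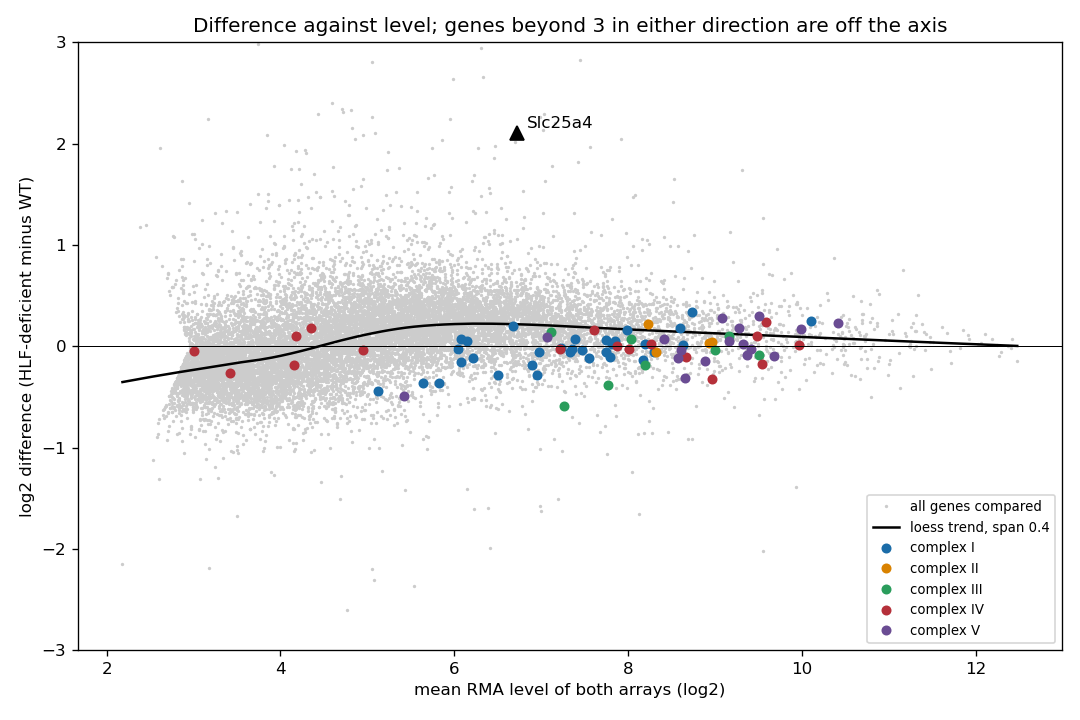
Log2 difference (HLF-deficient minus WT) against the mean level of both arrays for 14649 genes (grey), the 79 respiratory chain and ATP synthase genes (coloured by complex) and the ADP/ATP carrier gene Slc25a4 (triangle), with the loess trend. At the levels of the coloured points other than those of tissue-restricted isoforms and Cox7a2l the trend lies between 0.08 and 0.22, and most of these points fall under it.

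Complex I, the NADH dehydrogenase, was represented by 33 genes. Its median was -0.03, with 14 genes above 0 and 19 below, and it turned to 0.10 when the arrays were centred and to -0.22 after loess. The conserved core of the peripheral arm holds the flavin and iron-sulphur clusters. Ndufs7, which carries the last cluster before ubiquinone, had a level of 8.91 in the HLF-deficient and 8.57 in the WT tumour, a difference of 0.33 and the most positive of all 79. It was 0.20 after loess and 0.46 with the arrays centred. The flavoprotein Ndufv1 was at 7.45 and 7.49, and Ndufs1, the subunit with the most clusters, at 7.34 and 7.37, again HLF-deficient first; both were nearly level, with differences of -0.04 and -0.03. Ndufs3, Ndufs8 and Ndufv2 differed by 0.02, -0.06 and -0.13. The median of these 6 core genes was -0.03, with 2 above 0.

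Accessory subunits of the peripheral arm were mostly below 0, in 8 of 9 genes with a median of -0.12, and in 9 of 9 after quantile normalization or loess; with the arrays centred the median was 0.00. Ndufa7 had a level of 5.65 in the HLF-deficient and 6.01 in the WT tumour, a difference of -0.36. Ndufa5 and Ndufa12 both differed by -0.29. Ndufa2 was the exception at 0.06. The 18 accessory subunits of the membrane arm were mixed, with 11 above 0 and a median of 0.03, which was -0.15 after loess. Ndufb9 was the highest of them, at 10.2 in the HLF-deficient and 9.99 in the WT tumour (0.24), followed by Ndufb5 at 0.20 and Ndufa10 at 0.18. Ndufs5, a small subunit on the intermembrane face, was the lowest gene of complex I. Its level was 4.90 in the HLF-deficient and 5.34 in the WT tumour, a difference of -0.44, and a probe set that also names its pseudogene Ndufs5-ps differed by -0.32. Ndufb3 was the next lowest of the membrane arm at -0.36, with levels of 5.46 in the HLF-deficient and 5.82 in the WT tumour. These 4 lowest complex I genes, Ndufs5, Ndufa7, Ndufb3 and Ndufa5, stayed below 0 under all 4 scalings.

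Complex II, succinate dehydrogenase, is shared by the respiratory chain and the tricarboxylic acid cycle and is wholly nuclear-encoded. The SD of its 4 differences over genes was 0.12, the smallest of the 5 complexes. Sdha, the flavoprotein that oxidises succinate, was at 8.95 in the HLF-deficient and 8.92 in the WT tumour, a difference of 0.03. Sdhb, the iron-sulphur subunit, differed by -0.05 and the membrane anchor Sdhd by 0.04. The other anchor, Sdhc, was at 8.33 in the HLF-deficient and 8.11 in the WT tumour, a difference of 0.22. The median was 0.03, and it was -0.10 after loess.

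In complex III, the cytochrome bc1 complex, the Rieske iron-sulphur protein Uqcrfs1 and the core proteins Uqcrc1 and Uqcrc2 differed by 0.14, 0.07 and 0.10. Uqcrfs1 was at 7.19 in the HLF-deficient and 7.05 in the WT tumour. The 5 small subunits were below 0 as deposited, and 2 of them were above 0 on centring. Uqcr11 had a level of 6.97 in the HLF-deficient and 7.56 in the WT tumour, a difference of -0.59 or 1.51-fold lower. Its second, dimmer probe set differed by -0.36, and the mean of both was -0.47, inside 1.5-fold. Uqcr10 was at 7.58 in the HLF-deficient and 7.96 in the WT tumour (-0.38), Uqcrq differed by -0.19, Uqcrb by -0.09 and Uqcrh by -0.04. The 3 larger proteins lay above the 5 small ones as deposited and after quantile normalization and loess, although after quantile normalization and loess all 8 genes were below 0. Centring adds the same amount to every difference, so it could not change this order. The division into larger and small proteins was drawn after the values were seen. Cytochrome c1 (Cyc1), a catalytic haem subunit not covered by the symbols, did not share the position of these larger proteins: it differed by -0.04 as deposited, 0.08 on centring, -0.23 on quantile normalization and -0.25 on loess, which placed it below the small subunits Uqcrh and Uqcrb after quantile normalization and after loess.

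**Figure D3:**
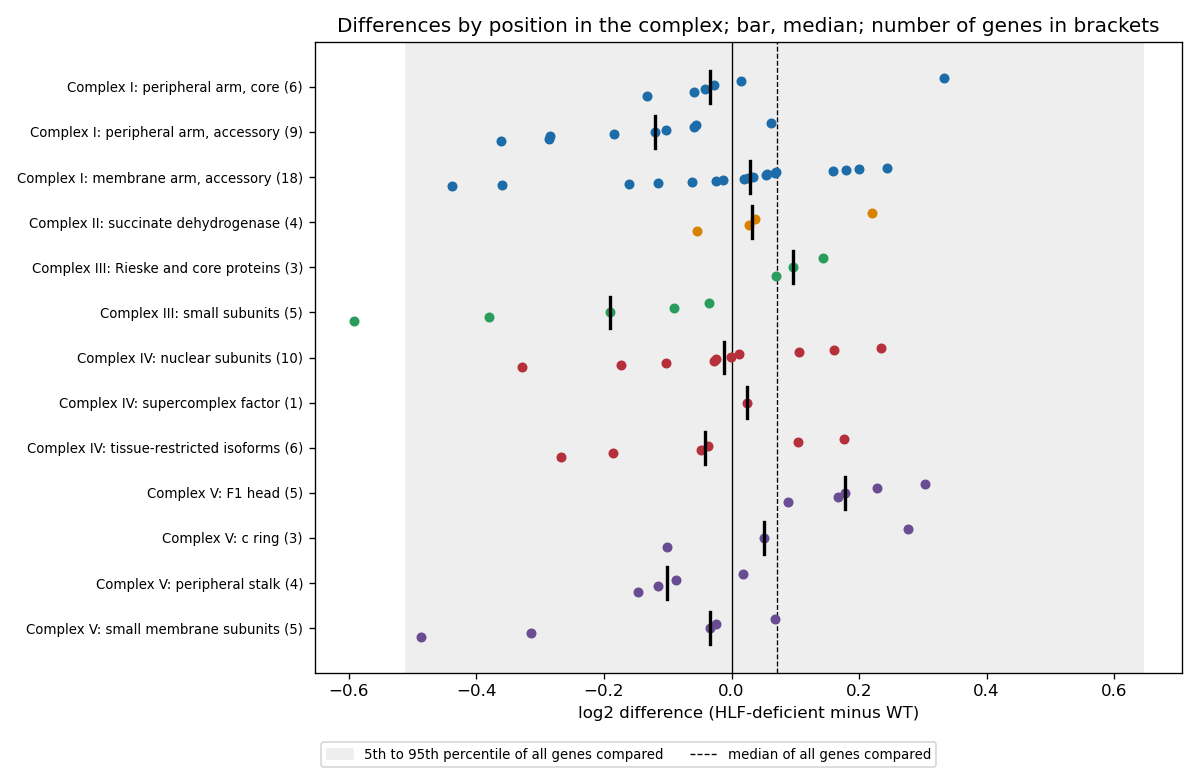
Log2 difference (HLF-deficient minus WT) of the 79 genes above the floor by textbook position in the complex, a grouping drawn after the values were seen, with values as deposited; each point is a gene, the bar is the median, and the shaded band holds the 5th to 95th percentile of all genes compared (-0.51 to 0.64). The F1 head of ATP synthase lies to the right of 0 and the small subunits of complex III to its left, and Uqcr11 alone falls outside the band.

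Complex IV, cytochrome c oxidase, has a catalytic centre encoded in mitochondrial DNA, so the nuclear genes here are its supporting subunits. Ndufa4, named for complex I but known as a complex IV subunit, was counted with them. The 10 general subunits had a median of -0.01, which was 0.11 with the arrays centred and -0.18 after loess. Cox4i1 was level, at 7.88 in each tumour. Cox6a1 was highest, at 9.70 in the HLF-deficient and 9.47 in the WT tumour (0.23), followed by Cox5a at 0.16. Cox7b was lowest, at 8.80 in the HLF-deficient and 9.13 in the WT tumour (-0.33), and its second probe set differed by -0.34. Ndufa4 differed by -0.17 and Cox5b by -0.10. Cox7a2l, a factor in joining complexes III and IV into supercomplexes, differed by 0.02 in its brighter and 0.20 in its dimmer probe set.

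The 8 tissue-restricted isoforms were examined beside their general counterparts, since a change of isoform can alter the enzyme without a change in its amount. Cox4i2, the oxygen-responsive form of Cox4i1, was at 4.07 in the HLF-deficient and 4.25 in the WT tumour (-0.19), beside 0.00 for Cox4i1. Ndufa4l2, a hypoxia-induced relative of Ndufa4, was at 4.44 in the HLF-deficient and 4.26 in the WT tumour (0.18), beside -0.17 for Ndufa4. Ndufa4l2 stayed above 0 and Ndufa4 stayed below 0 under all 4 scalings, although centring can only raise a difference. Each rests on 1 probe set. Both differences are smaller than 0.24, the SD of 1 probe set's difference over 740 genes, and larger than 0.09, that over 16 genes of the set. Of the heart and skeletal muscle forms, Cox6a2 differed by -0.04 and Cox7a1 by 0.11, beside 0.23 for Cox6a1 and -0.02 for Cox7a2, and Cox8b was below the floor. Of the testis forms, Cox6b2 was at 3.29 in the HLF-deficient and 3.56 in the WT tumour (-0.27, beside 0.11 for Cox6b1). Cox7b2 was below the floor, and Cox8c lay just above it at 2.98 in the HLF-deficient and 3.03 in the WT tumour. No isoform reached a difference of 0.32 as deposited, against 22.0% higher and 13.7% lower over all genes. Muscle markers were low, with levels of 1.72 to 5.03 in the HLF-deficient and 2.81 to 5.21 in the WT tumour over 7 genes. The 3 testis markers were low as well, at 2.53 to 4.60 in the HLF-deficient and 3.15 to 4.47 in the WT tumour. Their median difference was -0.51, and Prm1 among them went the other way at 0.14. The relation of these markers to Cox6b2 was not tested.

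ATP synthase was represented by 17 genes with a median of 0.02, which was 0.14 with the arrays centred and -0.12 after loess. The F1 head, which makes ATP, was above 0 in all 5 genes, with a median of 0.18 that stayed positive under all 4 scalings (0.30 on centring, 0.07 on quantile normalization and on loess). Atp5b, the catalytic beta subunit, was at 10.5 in the HLF-deficient and 10.3 in the WT tumour (0.23). Atp5a1, the alpha subunit, was at 10.1 in the HLF-deficient and 9.91 in the WT tumour (0.17). Atp5c1, the rotating gamma subunit, was at 9.66 in the HLF-deficient and 9.35 in the WT tumour (0.30), the second most positive difference of the 79. Atp5d differed by 0.18 and Atp5e by 0.09, and Atp5e was at -0.08 after quantile normalization and -0.12 after loess.

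The 3 genes of the membrane c ring encode the same mature protein from different precursors, and their differences were unlike in sign as deposited, while all 3 were above 0 on centring. Atp5g2 was at 9.23 in the HLF-deficient and 8.95 in the WT tumour (0.28), and its 3 probe sets ranged only from 0.28 to 0.29. Atp5g1 was at 9.63 in the HLF-deficient and 9.73 in the WT tumour (-0.10 in its brighter and -0.09 in its dimmer probe set), and Atp5g3 differed by 0.05. The peripheral stalk had a median of -0.10 with 3 of 4 genes below 0, but 0.02 with 3 of 4 above 0 on centring. Atp5j was at -0.15 and Atp5o at -0.11. Atp5pb was at -0.09 in its brighter and 0.04 in its dimmer probe set, and Atp5h was at 0.02 with probe sets from -0.01 to 0.05. Among the 5 small membrane subunits, Atp5k, which takes part in dimerisation of the enzyme, was at 5.18 in the HLF-deficient and 5.66 in the WT tumour, a difference of -0.49. Atp5mpl was at 8.50 in the HLF-deficient and 8.82 in the WT tumour (-0.31). Atp5j2, Atp5md and Atp5l differed by -0.02, -0.03 and 0.07.

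Across the 79 genes the difference correlated with level at Spearman rho = 0.33 and with the genomic length of the gene at rho = 0.18; over 14607 genes these were 0.43 and 0.23. The genes share the 2 arrays, so these are descriptions only. The 81 genes lay on 19 chromosomes with at most 8 on any of them, and their median genomic length was 7.18 kb, against 20.6 kb over all genes compared.

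Precision within the array pair could be read from the 16 genes with more than 1 probe set, which held 40 probe sets. Differences of the probe sets of a gene had the same sign in 11 of 16, and spanned less than 0.1 in 10. Taken from the 2 brightest probe sets of a gene, the SD of 1 probe set's difference was 0.09 over these 16 genes and 0.24 over 740 genes of the array. The widest span was that of Ndufa11, at 0.05 in the brighter and -0.28 in the dimmer probe set. The counts above take it as above 0 by its brighter probe set, so its direction is uncertain. With probe sets averaged, 35 rather than 36 genes of the set were above 0. Among accessory subunits of the membrane arm, 10 rather than 11 were above 0. Probe sets of such genes may read the gene and its processed pseudogenes alike, and the 6 probe sets annotated to several genes (3 for Cox7c, 2 for Ndufb4 and 1 for Ndufs5) were left out. The 3 for Cox7c differed by 0.06 to 0.08 and the 2 for Ndufb4 by 0.12 and 0.13.

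**Figure D4:**
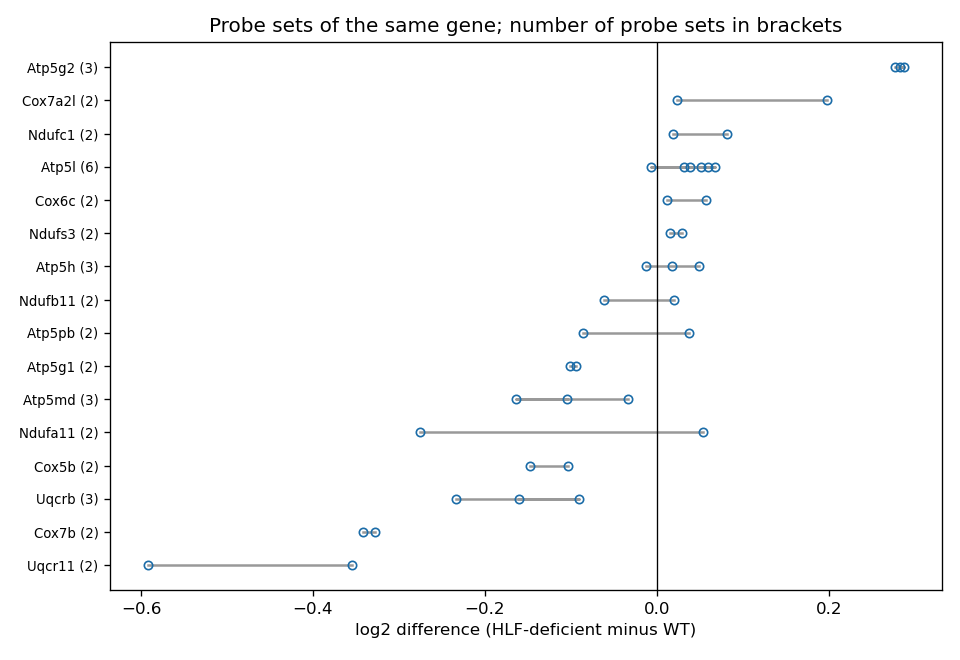
Log2 difference (HLF-deficient minus WT) of each probe set of the 16 genes with more than 1 probe set; a grey line joins the probe sets of a gene. Atp5g2, Cox7b, Atp5g1 and Ndufs3 have nearly coincident points, and Ndufa11 and Uqcr11 have the widest spans, 0.33 and 0.24.

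COX2 and ND3, subunits encoded in mitochondrial DNA were named on the array. COX2 (complex IV) was at 11.4 in both tumours, with differences of -0.03 and 0.00 in its pair of probe sets, and ND3 of complex I was at 10.8 in each, with -0.03 and 0.02. Cytochrome c (Cycs), the mobile carrier between complexes III and IV, was at 9.38 in the HLF-deficient and 9.69 in the WT tumour (-0.31), with another probe set at -0.24 and one more below the floor. The ATP synthase inhibitor Atpif1 differed by 0.17, and the complex I subunit Ndufab1 by 0.14.

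The largest difference near the pathway was in ATP export. Slc25a4, the ADP/ATP carrier typical of heart and muscle, which exchanges mitochondrial ATP for cytosolic ADP, was at 7.78 in the HLF-deficient and 5.67 in the WT tumour. The difference of 2.11, or 4.32-fold, ranked 20th among the increases of 14649 genes and was 2.23 on centring, 1.95 on quantile normalization and 1.89 on loess. It rests on 1 probe set. The general carrier Slc25a5 differed by 0.04, 0.06 and 0.10 in its 3 probe sets, and the phosphate carrier Slc25a3 by 0.14. Muscle markers had a median of -0.21 over the 6 of 7 that reached the floor, and the summed linear level of the 7 was 111 in the HLF-deficient and 136 in the WT tumour. The summed linear level of 5 endothelial markers was 636 in the HLF-deficient and 398 in the WT tumour. In the same order, that of 5 macrophage markers was 620 and 408, and that of 5 stellate and fibroblast markers 262 and 201. The part of these cell types and of muscle in the Slc25a4 difference was not tested.

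Assembly factors had medians near 0 as deposited. Of 16 complex I factors, 0 differed by 2-fold, against 1.49% higher and 0.362% lower over all genes. At 1.5-fold, 0 were higher and 1 was lower, against 6.35% and 3.13%. The gene lower by 1.5-fold, Ndufaf2, was at 4.44 in the HLF-deficient and 5.09 in the WT tumour (-0.64). Nubpl was highest at 0.48, with its WT value of 2.58 below the floor. The median was 0.04, and the range was wider than that of complex I subunits (-0.44 to 0.33). The 9 factors of complexes II and III had a median of 0.00, with Bcs1l at 0.21 and Sdhaf3 at -0.33. The 20 of complex IV had a median of 0.05, with Cox18 at 0.44 and Coa7 at -0.37. All 3 medians were below 0 after quantile normalization and loess, at -0.09, -0.16 and -0.15 after loess.

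Regulators of respiratory genes had a median of 0.19 over 12 genes, with 8 above 0; it was 0.31 with the arrays centred and 0.02 after loess. Nrf1, Gabpa, Gabpb1 and Yy1, factors of the motifs described above, differed by 0.38, 0.36, 0.38 and 0.36. Each stayed above 0 after quantile normalization and loess (0.14 to 0.29 after loess), while centring can only raise a difference here. The co-regulator Hcfc1 was highest at 0.47. Esrra, encoding ERR alpha, was lowest, at 5.20 in the HLF-deficient and 5.74 in the WT tumour, a difference of -0.54 that was -0.42 with the arrays centred and -0.73 after loess. The coactivators Ppargc1a and Ppargc1b differed by 0.08 and -0.23. None of the 12 differed by 1.5-fold as deposited, against 6.35% higher and 3.13% lower over all genes. By this rule 1 was higher on centring, and 1 was lower after quantile normalization and after loess.

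The remaining mitochondrial lists had small medians. The 13 genes of mitochondrial DNA maintenance and transcription had one of 0.20, with Mterf3 highest at 0.59 and Polg2 lowest at -0.09 (another gene was lowest, at -0.16, after averaging of probe sets), and it was 0.07 after loess. The 18 tricarboxylic acid cycle genes had one of 0.12, with citrate synthase (Cs) at 0.51 and Idh2 at -0.24. The 12 coenzyme Q genes had one of 0.08, with Coq10a, a coenzyme Q binding protein, at 0.86 or 1.81-fold higher in its brighter and 0.07 in its dimmer probe set, and Coq7 at -0.26. With the probe sets of each gene averaged, 0 of 12 coenzyme Q genes were higher by 1.5-fold, against 915 of 14586 genes. The highest coenzyme Q gene was then at 0.52. The 76 genes of the mitochondrial ribosome had one of 0.01, with Mrpl38 at 0.60 and Mrpl41 at -0.54 in its brighter and -0.23 in its dimmer probe set (Mrpl41 was not the lowest after averaging, when the lowest gene was at -0.41), and the 23 import genes one of 0.08, with Tomm34 at 0.68 and Tomm20l at -0.45. After loess the medians of these last 4 lists were -0.06, -0.10, -0.18 and -0.13. Cytosolic ribosomal proteins, another set of short and bright genes added after the values were seen, had a median of 0.07 over 55 genes and -0.07 after loess.

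**Figure D5:**
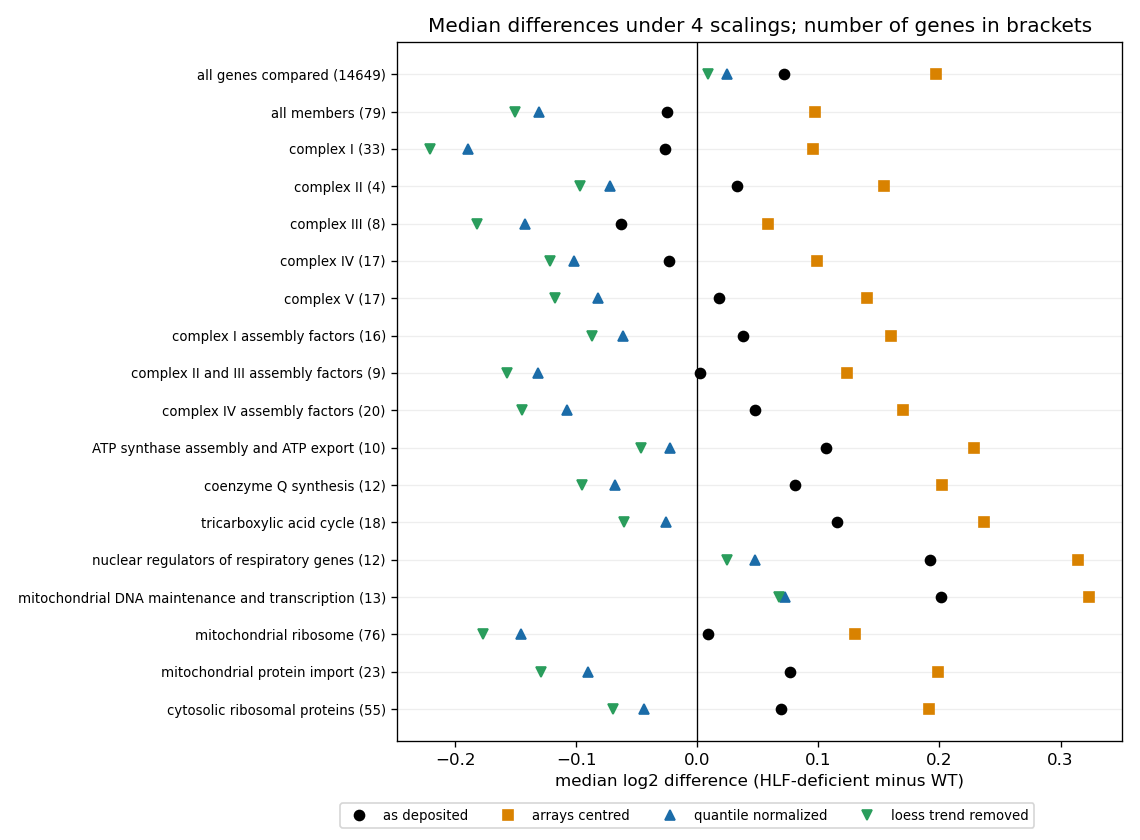
Median log2 difference (HLF-deficient minus WT) of all genes compared, of the respiratory chain and ATP synthase genes, of each complex and of related lists, under 4 scalings. For all respiratory genes the medians run from -0.15 to 0.10, and each of the 5 complexes is above 0 when the arrays are centred and below 0 after quantile normalization and loess.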

How the data were processed

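Carcinoma tissue was profiled on Affymetrix arrays, 1 for HLF-deficient and 1 for WT mice. Per the labels' protocols, Trizol RNA was labelled as biotinylated cDNA from 0.5 ug. The authors deposited log2 values, made with RMA in Affymetrix Expression Console per the submitters' processing notes; no version is given there, and the scale was read from the values (0.25 to 12.7). RMA compresses differences near background. The sources do not say which arrays entered the normalization. The number of arrays limits the precision.

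Of 35556 probe sets, 21789 named 1 gene in the platform annotation, 1621 several and 12146 none. Per gene the probe set with the highest mean was used. All 81 symbols matched the RefSeq table by gene identifier. Comparison took in 14649 genes that reached the floor on either array, by rules of 2-fold, 1.5-fold and a log2 difference of 0.32, with no test. Cell type and pathway lists, members and named genes were chosen with earlier results of these data known. Named in full were the extremes of each complex, genes of the set beyond 1.5-fold, isoforms and catalytic subunits. Genes with several probe sets and the extremes of the lists were named only in part. For some genes with several probe sets only the brightest was given, and the plot of probe set differences shows all 16. The 4 scalings were the values as deposited, centring, quantile normalization and loess (span 0.4). Other alternatives were averaging the probe sets of each gene, floors at the 90th and 99th percentile, no floor, and membership restricted to liver subunits. The procedure was run on simulated data made from the WT array with random noise and a uniform shift of the set. These data held no trend with level and no offset between arrays, so they do not test how the scalings treat either. Python 3.11.15, pandas 2.3.3, numpy 2.4.6, scipy 1.17.1 and statsmodels 0.14.6 were used.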

Additional observations from a re-analysis of the deposited data

How the results depend on the processing

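No paired analysis was possible because each genotype had 1 array, and for the same reason no array could be left out. Counts of genes differing by 2-fold were 0 in both directions under every alternative run. The count lower by 1.5-fold was 1 as deposited, 0 on centring or on averaging the probe sets of each gene, and 2 after quantile normalization or loess. Over all genes compared it was 458 of 14649 as deposited, 201 of 14598 on centring and 424 of 14586 on averaging. It was 351 of 14592 after quantile normalization and 373 of 14649 after loess. Lower by at least 0.32 were 7 of 79 as deposited, 2 centred, 12 after quantile normalization and 14 after loess. Higher were 1, 7, 0 and 0 in the same order. The counts over all genes moved too. Lower were 2001 of 14649 as deposited, 1061 of 14598 centred, 1640 of 14592 after quantile normalization and 1716 of 14649 after loess. Higher were 3216, 5189, 2259 and 2087 of all genes in the same order. Centring changed the medians to 0.10 for all genes of the set, 0.10 for complex I, 0.15 for II, 0.059 for III, 0.10 for IV and 0.14 for V. Quantile normalization gave -0.13 for all, -0.19 for I, -0.073 for II and -0.082 for V, and loess gave -0.15 for all, -0.22 for I, -0.10 for II, -0.18 for III and -0.12 for V. The sign of a complex or of the whole set turned in 4 of 6 medians on centring and in 2 of 6 after quantile normalization or loess. Centring adds 0.12 to every difference by its construction; the cause of the other shifts was not tested. Other floors, no floor and membership limited to liver subunits with Cyc1 and Ndufab1 moved none of these medians by 0.1. Genes near the floor, such as Cox8c, are limited by signal over background.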
